A study of Drosophila melanogaster with 2 samples.

Results

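The genes of asymmetric cell division examined here were numb, pros and brat, which encode fate determinants, spdo, which encodes a Notch regulator that acts between sibling cells, mira, stau and pon, which encode carriers of determinants, and insc and pins, which encode apical and spindle proteins. Earlier results of these data were known when these 9 genes were chosen by name. They were chosen out of 13945 protein-coding genes and 18164 genes in all on the 6 chromosome arms of *Drosophila melanogaster*. All came from 1 group of samples, embryos of both sexes collected at 4 to 14 h from a transgenic line that carries E(spl)m8-HLH with GFP at its C-terminus. E(spl)m8-HLH is a basic helix-loop-helix repressor whose gene is switched on by Notch. Chromatin from whole embryos, sheared to 200 to 800 bp, was precipitated with an antibody to GFP in 2 biological replicates, numbered 2 and 3 in the labels, and sequenced. There was no second condition, and whole embryos mix every tissue, so a peak cannot be assigned to neuroblasts or sensory precursors.

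In a dividing neuroblast, an apical complex of Bazooka, Par-6 and atypical protein kinase C recruits Inscuteable. Inscuteable binds Pins and aligns the spindle with the polarity axis. Miranda and Partner of Numb carry the determinants to the opposite side of the cell, so that a single daughter inherits them. Numb then blocks Notch in that daughter, acting on the transmembrane protein Sanpodo, while Notch and its E(spl) target genes are active in the other daughter.

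The values below are the signal of each peak as the authors' peak caller gave it, and its rank within its list, where 1 is the strongest. The lists comprised an optimal set of 6152 peaks, chosen by the authors for reproducibility, the pooled list of 30000 peaks from which it came, and a list of 30000 peaks for each replicate. Signals were set side by side within 1 list only, while ranks were compared between the lists of equal length. A gene was counted as bound when an optimal peak had its summit inside the gene or at most 2 kb outside. Replicate values are those of the replicate peak that contains the pooled summit. Coordinates are those of the assembly dm6.

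By this rule 8 of the 9 genes were bound, all but pon, beside 36.8% of all protein-coding genes (5137 of 13945). Together they held 32 summits of the optimal set, with 10 at brat, 7 at pros, 5 at numb, 3 each at spdo and mira, 2 at insc and 1 each at stau and pins. Long genes were bound more often, and numb, pros, brat and insc belonged to the longest of 10 length classes of equal size, of which 64.9% were bound. The share bound was 51.1% in the length class of stau, 39.9% in that of mira and pins, 36.3% in that of pon and 33% in that of spdo. In strength the genes fell into 2 sets, numb, brat, pros and spdo with a strongest summit between 1479 and 1669.8, at pooled ranks 104 to 144, and insc, mira, pins and stau with one between 186 and 407, at ranks 1889 to 5471. Over all 5137 bound protein-coding genes the median strongest signal was 360.4.

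**Figure D1:**
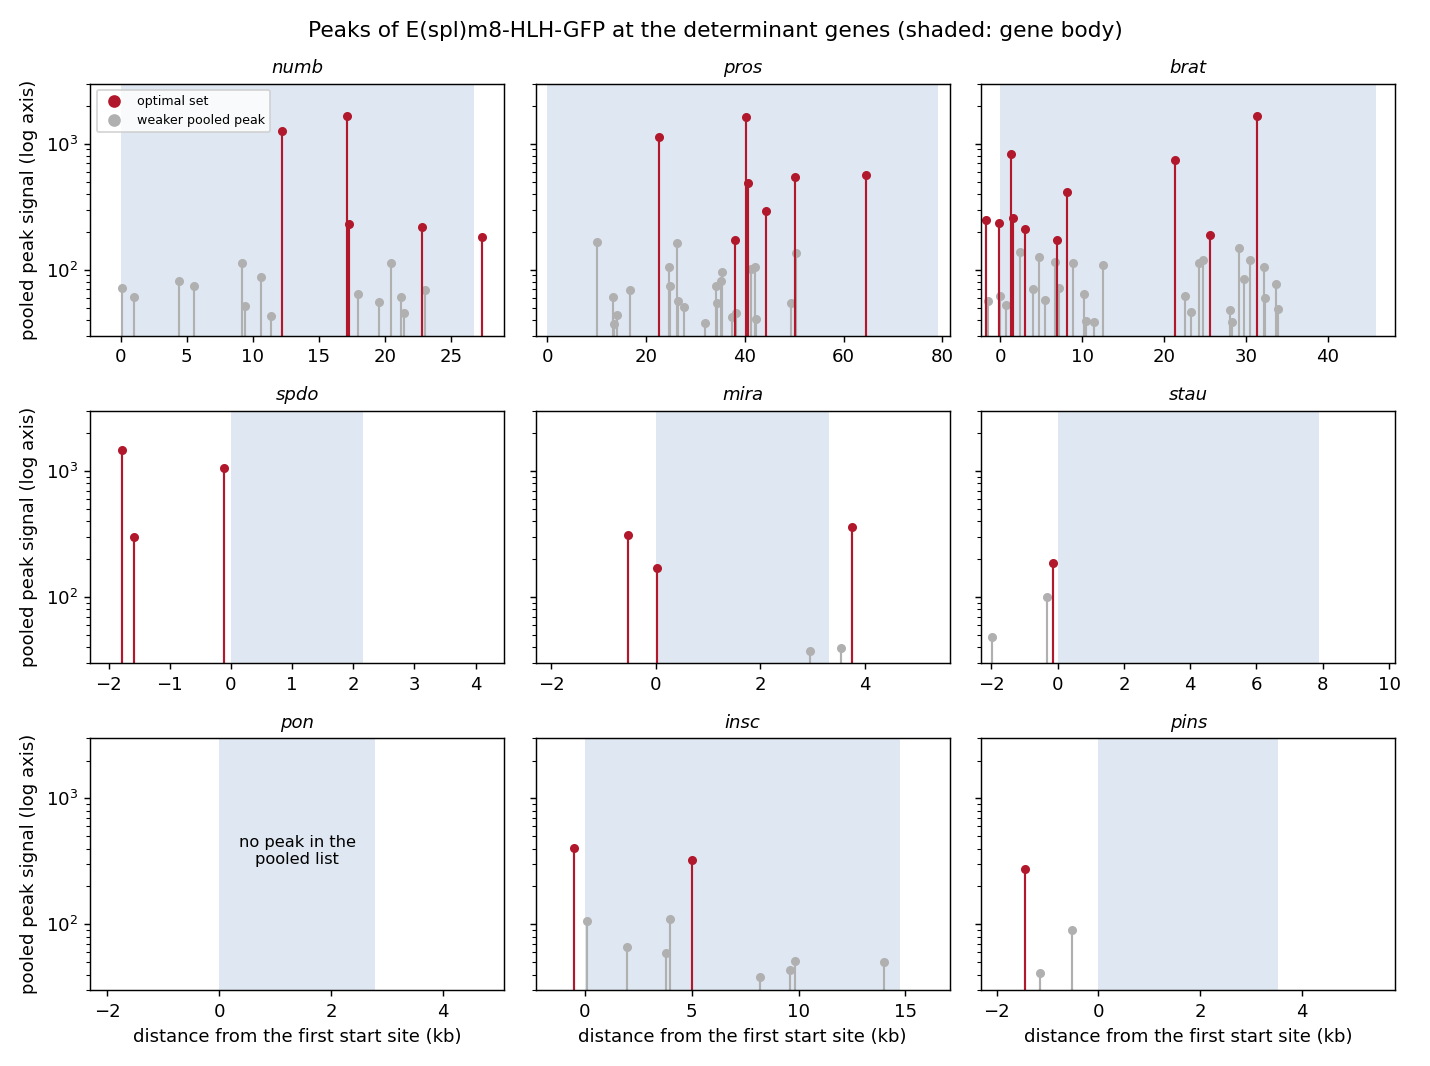
Pooled peaks at each of the 9 genes, by distance of the summit from the first annotated start site in the direction of transcription (kb) and by pooled signal (log axis); red marks the optimal set, grey the weaker pooled peaks, and shading the gene body. The strongest summits, up to 1669.8, belong to numb, pros, brat and spdo, those of spdo lie upstream of the gene, and pon has none.

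The gene numb encodes the membrane-associated inhibitor of Notch, and spdo encodes the Sanpodo protein that Numb acts on. Both had a CACGTG, the E-box bound by the Hairy/E(spl) family, within 50 bases of their strongest summit. The sequence from 50 bases left to 50 bases right of each of these 2 summits is shown for that reason, from the Release 6 sequence of RefSeq, which is the assembly dm6, on the plus strand. Capitals mark the E-box CANNTG, the class C site CACGCG and the N-box CACNAG, found on either strand. The numb window is chr2L:9454523-9454623 and the spdo window is chr3R:30474848-30474948.
numb: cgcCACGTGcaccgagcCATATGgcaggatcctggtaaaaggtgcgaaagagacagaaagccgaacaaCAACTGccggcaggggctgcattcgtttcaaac
spdo: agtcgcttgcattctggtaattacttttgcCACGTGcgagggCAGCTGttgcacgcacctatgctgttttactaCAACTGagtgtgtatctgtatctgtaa
The centre of CACGTG lay 44 bp left of the numb summit and 17 bp left of the spdo summit. The numb window also held CATATG to the right of its CACGTG, and the spdo window held CAGCTG between its CACGTG and the summit.

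The gene numb spans chr2L:9437469-9464184 on the plus strand, with 2 start sites. Its strongest summit, at 9454573, lay 4743 bp downstream of the second start site, in the first or second intron of each of its 3 transcripts. There the pooled signal was 1669.8 (rank 104), with 597 in replicate 2 (rank 274) and 1077 in replicate 3 (rank 45). The next strongest, at 9449686, lay 144 bp upstream of the second start site, with a pooled signal of 1263 (rank 211), 669 in replicate 2 (rank 217) and 595 in replicate 3 (rank 220). It was thus the intronic summit that ranked apart in the replicates, while the promoter summit held nearly the same rank in both. A shoulder at 9454772 (pooled signal 228, rank 4214) was called as a summit of its own in replicate 3 (208, rank 1828) but not in replicate 2, where the neighbouring peak covered it. The remaining 2 summits, at 9460285 in an exon outside the coding sequence and at 9464822 beyond the end of the gene, had pooled signals of 220.0 and 180.3. No optimal summit lay at the first start site of numb, where the nearest pooled peak had a signal of 71.0 (rank 16272).

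At spdo, a short gene at chr3R:30476684-30478849 on the plus strand, all 3 optimal summits lay upstream of its only start site and in an intron of PH4alphaEFB, a prolyl hydroxylase gene that contains the whole of spdo. The strongest, at 30474898, was 1786 bp upstream and had a pooled signal of 1479 (rank 144), with 595 in replicate 2 (rank 278) and 897 in replicate 3 (rank 84). The promoter summit, at 30476570 and 114 bp upstream, had 1053 (rank 324), with 337 in replicate 2 (rank 911) and 713 in replicate 3 (rank 143). Both ranked better in replicate 3. The third, at 30475101, shared a peak of 929 bp with the strongest and had a pooled signal of 301, with 30.6 in replicate 2 (rank 19036) and 253 in replicate 3 (rank 1329). The body of spdo itself held no pooled peak. Within its length class, 98.9% of protein-coding genes had fewer optimal summits than spdo. This class ran from 1717 to 2166 bp, and spdo, at 2166 bp, was at its upper end.

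The gene pros, which encodes a homeodomain protein that stops self-renewal in the ganglion mother cell, spans chr3R:11328480-11407627 on the plus strand, with 4 start sites. Its 7 optimal summits were spread over 41.93 kb of the gene. The strongest, at 11368801, lay 3987 bp upstream of the last start site, in the second intron of the 3 transcripts that begin further upstream. Its window, chr3R:11368751-11368851, is shown in the same way for comparison with numb and spdo, since it holds neither CACGTG nor the class C site CACGCG.
pros: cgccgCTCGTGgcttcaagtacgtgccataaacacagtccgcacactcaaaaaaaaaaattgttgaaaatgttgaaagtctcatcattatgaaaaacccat
The capitals mark an N-box on the minus strand. The pooled signal there was 1638 (rank 113), with 613 in replicate 2 (rank 262) and 1023 in replicate 3 (rank 59). A second summit in the same peak, at 11369054, had 491 (rank 1412), with 277 in replicate 2 (rank 1244) and 563 in replicate 3 (rank 244).

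Next in strength at pros came 11351052, with a pooled signal of 1126 (rank 275), 423 in replicate 2 (rank 584) and 694 in replicate 3 (rank 154). This summit lay in an intron of pros but also in an exon, outside the coding sequence, of KP78a and KP78b, a pair of protein kinase genes on the opposite strand inside pros, and their start site was the nearest, 2079 bp away. The last start site of pros carried a summit 29 bp upstream, at 11372759, in a coding exon of other pros transcripts, with 292 (rank 3040), 115 in replicate 2 (rank 4268) and 162 in replicate 3 (rank 2647). An intronic summit at 11378725 had 543 (rank 1212), with 172 in replicate 2 (rank 2528) and 369 in replicate 3 (rank 665). At 11366549 lay 1 of the weakest summits of the optimal set, with 172 (rank 6010), 84.5 in replicate 2 (rank 6165) and 87.9 in replicate 3 (rank 6489).

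The summit furthest into pros, at 11392984 in an exon outside the coding sequence, stood apart. It had a pooled signal of 565 (rank 1139) and 362 in replicate 2 (rank 788), but no peak in replicate 3, whose nearest summit lay 14038 bp away. The pooled peak was 243 bp wide, against a median of 424 bp in the optimal set. The window around its summit held 4 matches to GAGAGA, where overlapping matches were each counted. GAGAGA was in 3 of the 32 windows of the 9 genes (9.38%), against 4.36% of the whole optimal set. Of the 1139 strongest optimal peaks, 12 had no peak in replicate 3 and 5 had none in replicate 2.

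The gene brat, which encodes an NHL-domain translational repressor that restrains growth in the daughter cell, spans chr2L:19133816-19179758 on the plus strand, with 3 start sites. With 10 optimal summits it tied for place 25 among all protein-coding genes, and 31 genes had 10 or more. The strongest, at 19165166, lay 701 bp upstream of the last start site in an intron, with a pooled signal of 1647 (rank 108), 861 in replicate 2 (rank 120) and 775 in replicate 3 (rank 112). No other summit of the 9 genes in the strongest 500 was as even between the replicates as this summit and the numb promoter. Its window, chr2L:19165116-19165216, held none of the 3 motifs and so has no capitals, and it is shown as the AT-rich contrast to the others.
brat: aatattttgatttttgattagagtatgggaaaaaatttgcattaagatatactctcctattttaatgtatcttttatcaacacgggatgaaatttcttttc
Bases G and C made up 24.8% of it, against 55.4% of the numb window.

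The 5′ end of brat overlaps Polr1D, an RNA polymerase subunit gene on the opposite strand, and 4 of the 10 summits were within 500 bp of a start site of Polr1D or of AsnRS, an aminoacyl-tRNA synthetase gene. The strongest of these 4, at 19135166, was 67 bp downstream of a Polr1D start and 1350 bp into brat, with a pooled signal of 824 (rank 559), 274 in replicate 2 (rank 1276) and 561 in replicate 3 (rank 249). A CACGCG, the class C site of the Hairy/E(spl) family, lay with its centre 24 bp to the left of this summit. The other 3, at 19132090, 19133620 and 19135369, had pooled signals between 236 and 256. Of these, 19133620 was also 196 bp upstream of the first start site of brat, with Polr1D nearer, at 137 bp. The second start site had an intronic summit 3370 bp before it, at 19155170, with 738 (rank 682), 290.2 in replicate 2 (rank 1171) and 435 in replicate 3 (rank 442). At 19141945 a narrow peak of 120 bp had 412 (rank 1867), with 197 in replicate 2 (rank 2084) and 216 in replicate 3 (rank 1711). The remaining 3, at 19136904, 19140762 and 19159429, had pooled signals between 172 and 212, and the last of them, beside a start site of a non-coding RNA gene, ranked 15226 in replicate 2 and 6014 in replicate 3.

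The gene mira encodes the scaffold that binds Prospero, Brat and Staufen and carries them to the basal side. It lies at chr3R:19931799-19935120 on the minus strand, inside Hs6st, a heparan sulfate sulfotransferase gene. Its strongest summit, at 19931376, lay 423 bp beyond its 3′ end in an intron of Hs6st. The window of this summit, chr3R:19931326-19931426, is shown because a CAGCTG begins at the summit base itself.
mira: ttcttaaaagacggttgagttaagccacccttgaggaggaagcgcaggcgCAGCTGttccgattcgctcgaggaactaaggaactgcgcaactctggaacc
The pooled signal was 359 (rank 2251), with 114 in replicate 2 (rank 4279) and 252 in replicate 3 (rank 1333). The upstream summit, at 19935654 and 534 bp before the first start site, had 312 (rank 2763), with 154 in replicate 2 (rank 2943) and 186 in replicate 3 (rank 2154). At the start site itself, 28 bp downstream, a summit at 19935092 had 170.1 (rank 6110), with 96.0 in replicate 2 (rank 5296) and 91.9 in replicate 3 (rank 6122). In its length class, 98.2% of protein-coding genes had fewer optimal summits than mira. By the same measure brat had 97.8%, pros 93.6%, numb 85.7%, pins 60.1%, insc 55.5%, stau 48.9% and pon 0%. The class of brat, pros, numb and insc ran from 14601 to 1965857 bp, with insc, at 14767 bp, near its lower end. Length was thus matched only coarsely.

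Binding was weaker or absent at the other carrier genes. The gene stau encodes a double-stranded RNA-binding protein that carries prospero mRNA, and it lies at chr2R:18117896-18125779 on the minus strand. It had 1 optimal summit, at 18125905 and 126 bp upstream of its first start site, with a pooled signal of 186 (rank 5471), 98.3 in replicate 2 (rank 5149) and 88.6 in replicate 3 (rank 6403). The gene pon encodes the adaptor that helps to localise Numb, and it lies at chrX:4636318-4639112 on the plus strand. No peak of the optimal, pooled or replicate 2 list had its summit within 2 kb of pon. The replicate 3 list had 1, at rank 21194 of 30000 with a signal of 31.9, between the median (44.7) and the lowest (21.9) of that list. The pooled and replicate lists hold 30000 peaks each, so a peak at pon weaker than the lowest of a list was not detectable. Read depth is not in the files used.

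The gene insc, whose product links Bazooka to Pins, lies at chr2R:20821262-20836028 on the minus strand and shares its start site with sktl, a lipid kinase gene that overlaps it. A summit at 20836528, 500 bp upstream of this shared start, had a pooled signal of 407 (rank 1889), with 182 in replicate 2 (rank 2330) and 241 in replicate 3 (rank 1433). The other, at 20831032 in the first intron of insc and 1386 bp downstream of another start site of sktl, had 323 (rank 2608), with 149 in replicate 2 (rank 3085) and 175 in replicate 3 (rank 2373). The gene pins encodes a GoLoco protein that binds a G protein alpha subunit and the spindle protein Mud, and it lies at chr3R:27582840-27586376 on the plus strand. Its single summit, at 27581407, lay 1433 bp upstream and was nearest to a start site of wdb, a phosphatase subunit gene on the opposite strand, 136 bp into that gene. The pooled signal was 277 (rank 3280), with 125 in replicate 2 (rank 3824) and 158 in replicate 3 (rank 2740). The peak list alone cannot tell which gene of each such pair a summit belongs to.

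**Figure D2:**
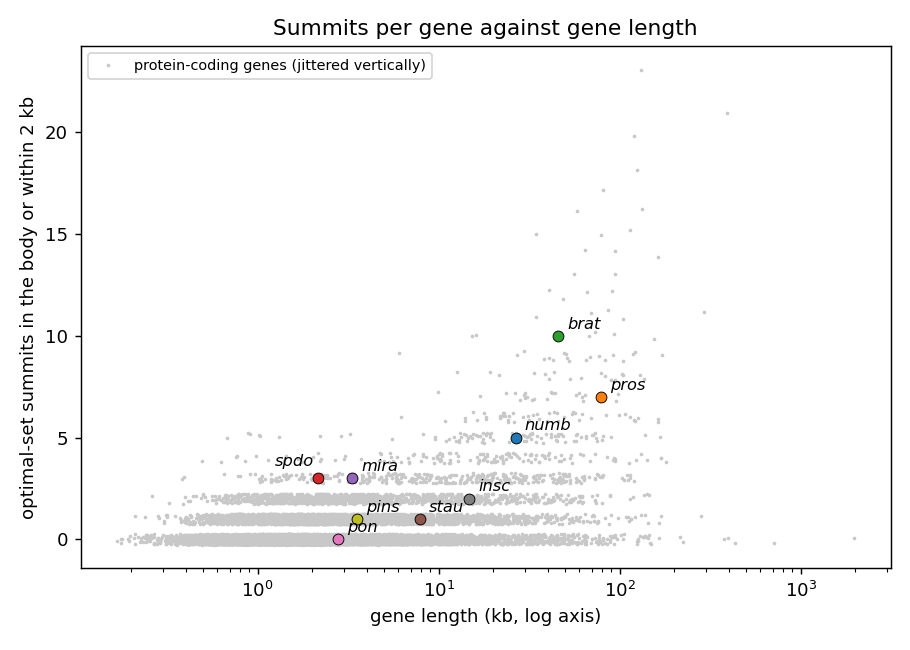
Number of optimal summits in the gene body or within 2 kb against gene length (kb, log axis) for all protein-coding genes (grey, jittered vertically) and the 9 genes (coloured). Summit number rises with length, with brat at 10 and pros at 7 among the long genes, spdo and mira at 3 among short genes, and pon at 0.

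Of the 32 summits, 21 lay in the body of the gene, 9 upstream and 2 downstream, and 11 lay in the body of another gene. The nearest start site belonged to the gene itself for 17 and to another gene for 15. By position, 12 were within 500 bp of a start site of any gene (37.5%, against 40.2% of the whole optimal set), 16 in introns (50%, against 38.1%), 3 in exons (9.38%, against 2.86%) and 1 in intergenic DNA (3.12%, against 18.9%). An intergenic share below that of the whole set follows in part from the rule, which takes summits in and near genes. The same rule raises the other shares, so the promoter, intron and exon shares are not directly comparable with those of the whole set. Introns and exons of any gene were counted, not only those of the 9 genes. Of the 12 promoter summits, 7, in 7 genes, were within 500 bp of a start site of the gene itself, and for 6 of these that start site was the nearest. The median signal of the 32 was 318, against 289.8 for the whole optimal set. In the strongest 500 peaks stood 7 of the 32 (21.9%), against 8.13% of the whole set, and in the strongest 100 stood 0, against 1.63% of the whole set.

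Summits of the 9 genes were found in both replicate lists in 31 of 32 cases (96.9%), as in the whole optimal set (96.9%). Among the strongest 6152 peaks of both replicates were 25 (78.1%), against 74.7% of the whole set. The rank was better in replicate 3 for 23 of the 32 summits and in replicate 2 for 8, while over the whole optimal set the shares were 43.8% and 53%. Of the 7 summits in the strongest 500, 6 ranked better in replicate 3, against 40.8% of all the strongest 500. With 2 replicates the difference between them was not tested. The summits of the replicates lay close to the pooled ones, at a median of 13.5 bp for replicate 2 and of 15 bp for replicate 3.

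**Figure D3:**
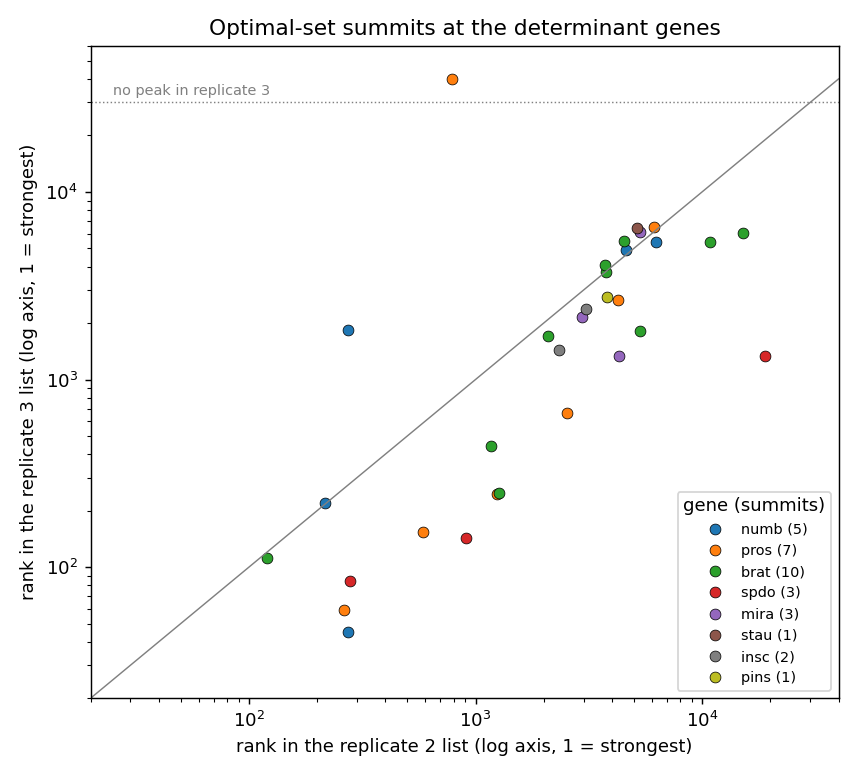
Rank of each of the 32 optimal summits in the replicate 2 list (x) and the replicate 3 list (y), both log axes with 1 as the strongest, coloured by gene; the line marks equal ranks and the point above the dotted line has no peak in replicate 3. Most points lie below the line, with a better rank in replicate 3, and the point without a replicate 3 peak is the distal summit of pros.

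The edge of the optimal set ran through the peaks of these genes. Just inside it stood brat at 19140762 (172, rank 6020) and mira at 19935092 (170.1, rank 6110), and just outside it pros at 11338502 (166, rank 6270) and 11354695 (162, rank 6486). The summit at 11338502 ranked 4093 in replicate 2 and had no peak in replicate 3. Below the edge the pooled list held 77 further summits at the 9 genes, 27 at brat, 22 at pros, 14 at numb, 8 at insc, 2 each at mira, stau and pins, and 0 at spdo and pon. Their signals ran from 37.0 to 166 with a median of 63.7, and 41 of the 77 were in both replicate lists, 23 in replicate 3 only, 11 in replicate 2 only and 2 in neither.

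Motifs were counted within 50 bases of each optimal summit, on both strands. CACGTG was in 2 of the 32 windows (6.25%, against 2% of all 6152), those of numb and spdo, and CACGCG in 1 (3.12%, against 3.32%), that of brat. The N-box CACNAG was in 7 (21.9%, against 9.93%), of pros, brat and mira. An E-box of any kind, CANNTG, was in 14 (43.8%, against 37.5%). This class takes in CACGTG and also CAGCTG, an E-box that proneural proteins bind, in 7 windows (21.9%, against 4.84%) of 6 genes, numb, pros, brat, spdo, mira and insc. The Su(H) core GTGGGAA was in 0 of the 32 windows (1.2% of all 6152). Of the other motifs counted, CATATG was in 1 window (3.12%, against 4.14%), TAATTA in 3 (9.38%, against 9.85%) and AGATAA in 1 (3.12%, against 7.93%). ATCGATA and CAGGTAG were in 0 (2.6% and 0.65% of all 6152), and GAGAGA was in 3 (9.38%, against 4.36%). The windows of the 9 genes were richer in G and C, with a median of 44.55% against 32.7% of the whole set. In the 1378 windows of the whole set with at least 44.55% G and C, the share was 6.24% for CACGTG, 11.9% for the class C site, 16.8% for the N-box, 53% for any E-box and 13.2% for CAGCTG. The shares of the 9 genes took all 32 windows, also those below this cutoff, so the comparison was not matched in G and C. The part of base composition in these shares was not tested, and a match is a run of letters, not a site shown to be bound.

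A list of 49 other genes of asymmetric division, drawn up by role, was bound in 38 cases (77.6%), beside the 36.8% of all protein-coding genes given above, without an account of gene length. Their median strongest signal, 353, was close to the median of all bound genes. Of 9 polarity genes 7 were bound, led by cno, which encodes an actin linker (2352), baz (1787), aPKC (1306) and par-6 (502), and Cdc42 and l(2)gl were unbound. The strongest summits of baz, aPKC and par-6 were each nearest to a start site of another gene. Of 10 spindle genes 8 were bound, led by Gbeta13F (1779.8, nearest to Gapdh2), cnn (794), Galphai (284, nearest to a non-coding RNA gene) and loco (279), the last 2 both encoding partners of Pins, while mud and ric8a were unbound. Among 12 kinase, phosphatase and myosin genes 9 were bound, led by jar, a myosin gene (698), sqh, a myosin light chain gene (539.8), mts (522, nearest to Rack1) and Cdk1 (418), with Pp4-19C, polo and zip unbound.

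Of 10 genes for the trafficking of Numb and Notch, 8 were bound, led by l(2)gd1 (1833, 120 bp upstream of its start), neur, which encodes a ubiquitin ligase inherited together with Numb (1463, with 8 summits), the receptor gene N (955) and Rab11 (599.6), and AP-2sigma and Sara were unbound. The strongest summits of neur and N were nearest to a start site of another gene. Among 8 genes for translational and transcriptional partners 6 were bound, led by eIF4EHP, a cap-binding partner of Brat (2457, nearest to CG18428), pum, another partner of Brat (560.5, with 9 summits), dap (354) and klu (220.2), with dpn and mei-P26 unbound. Set beside these, numb, brat, pros and spdo ranked 104, 108, 113 and 144 by their strongest summit. Of the other genes, eIF4EHP ranked 36, cno 39, l(2)gd1 80, baz 88, Gbeta13F 91 and neur 149.

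**Figure D4:**
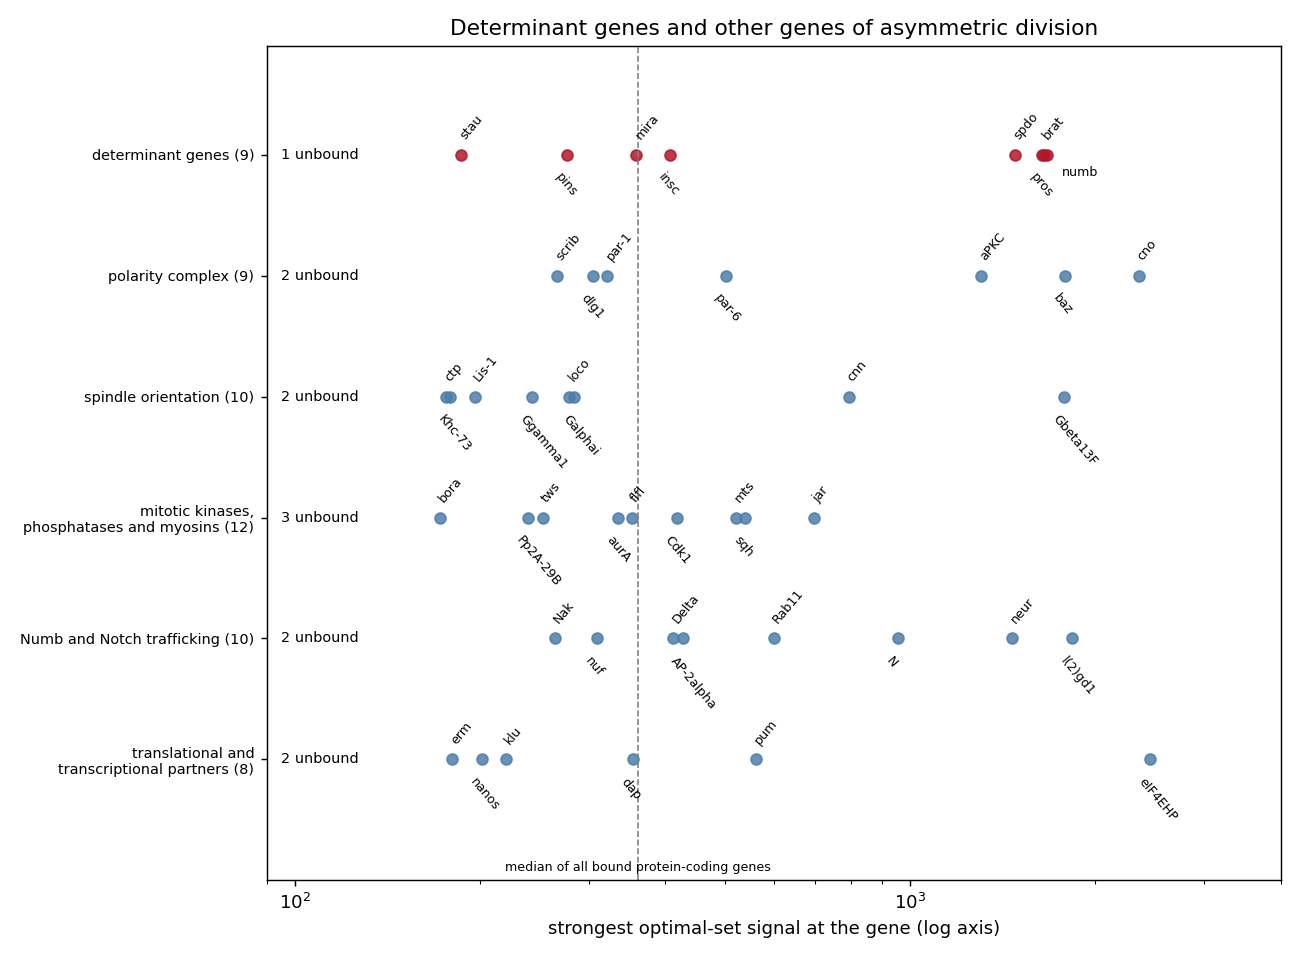
Strongest optimal signal (log axis) at the 9 genes (red, top) and at the 49 other genes of asymmetric division by role (blue), with the number of unbound genes at the left; the dashed line is the median over all bound protein-coding genes, 360.4. Points lie far right of the line for numb, brat, pros and spdo and for some genes of every other role, least so for kinases, phosphatases and myosins, where the highest is jar at 698.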

How the data were processed

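Chromatin immunoprecipitation and sequencing of E(spl)m8-HLH-GFP was represented by 4 deposited peak lists on dm6. Per the file headers of the text deposited with the samples, the authors called peaks on each replicate and on both pooled, each with a control file, and took an optimal set by irreproducible discovery rate. The signal of a peak and its −log10 q-value are the authors' values as deposited. The q-value was the same for all 6152 optimal peaks and was not used. Aligner, caller and threshold were not given in the sources used here, and read depth is unknown.

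Summits were assigned to genes of the Ensembl annotation, release 115, with transposable elements left out, within the gene body or 2 kb, and to features in the order promoter (500 bp of any start site), exon, intron and intergenic. All peaks lay within the arms of the RefSeq Release 6 sequence, the source of the printed sequences. A replicate peak was matched when it contained the pooled summit, the nearest summit being taken. Of the 49 other genes, 3 symbols were replaced by those of the annotation. Steps were tested on simulated data, in Python 3.11 with pandas 2.3.3.

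The 9 genes, the other lists and the motifs were chosen with earlier results of these data known, and the N-box, CAGCTG, the Su(H) core and GAGAGA were added to the motifs after the peaks were seen. Of the other genes, each role names its 4 bound genes of highest signal and, alphabetically, up to 3 unbound ones. Windows of 50 bases on either side are printed for strongest summits, or those with CACGTG or the class C site, that hold no exon, with 1 arm left out. With 1 group and no contrast no test was made. Both replicates are biological replicates per the labels. Alternatives covered the flank, nearest start site only, peak strength, the match between lists, the promoter and motif windows and each replicate left out.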

Additional observations from a re-analysis of the deposited data

How the results depend on the processing

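With the gene body only, 5 of the 9 genes were bound (spdo, stau and pins were lost) with 21 summits, against 8 genes and 32 summits with a flank of 2 kb, and the share of all protein-coding genes bound was then 13.3%. With a summit counted only for the gene of its nearest start site, 17 summits remained at 7 genes. The share of all protein-coding genes bound by that rule was not computed, so these 7 have no background beside them. With a flank of 500 bp 7 were bound, pins being lost, beside 27.7% of all protein-coding genes. In the stronger 50% of the optimal set 6 of the 9 genes were bound, stau and pins being lost, with 19 summits. Of the 49 other genes 24 were then bound, against 38. The share of all protein-coding genes bound in that stronger set was 23.3%. In place of the 96.9% of summits matched in both replicate lists, 71.9% were matched with a reciprocal overlap of 50% and 78.1% where both replicate peaks had to be among the strongest 6152. The median strongest signal over the bound genes, 943, moved to 1638 with the gene body only, 1053 with a flank of 500 bp, 1067 with 5 kb and 1479 by nearest start site, as genes dropped out or took another strongest summit.

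Without replicate 2 (the 6152 strongest peaks of replicate 3) 7 of the 9 genes were bound, stau being lost, with 29 summits, beside 35.3% of all protein-coding genes. Without replicate 3 there were 8 with 30 summits, beside 38.5%. Of 38 alternatives to the main counts and shares, 31 stayed within 1.5 times the count or within the exact binomial 95% interval of the share. The share with CACGTG or CACGCG, 9.38% within 50 bases, was 3.12% within 25 bases, at spdo only, and 15.6% within 100. Both values counted as within the interval, which is wide for so few summits. Summits of the same gene are not independent draws, so the interval served as a loose yardstick and not as a test of stability. No paired analysis was possible because there was 1 group. Unknown read depth limits what can be said of the unbound pon.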

Other observations

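The replicate lists held summits at the 9 genes that matched no pooled peak, 16 of 97 in replicate 2 and 24 of 109 in replicate 3. The best ranked of them lay at brat, at rank 4535 in replicate 2 and 6766 in replicate 3. Among the other genes, the best ranked lay at spdo in replicate 2 (rank 13036) and at mira in replicate 3 (rank 8681).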
